A study of Mus musculus with 5 samples.

Results

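The vascular lining of the embryonic forelimb bud was followed through 41 endothelial genes, chosen by gene symbol as markers and regulators of endothelial cells. Each of the 41 was on the array, among 18193 genes with a named probe set, and together they had 68 of the 45037 probe sets tested. A probe set is a group of short probes read out as 1 value. The main readout of a gene was its brightest probe set, that is, the one highest on average across the 5 arrays, and the others served as a check. RNA came from forelimb buds of C57Bl/6 mouse embryos at E11.5, on 5 single-channel arrays. The experimental group held 2 arrays from Sost-/-; Sostdc1-/- double mutants, which lack the secreted Wnt antagonist sclerostin and its relative, an antagonist of Wnt and BMP signals. The reference group held 3 wild type arrays. The design text says that embryos were not pooled. The labels do not say how the alleles were made or which part of each gene they remove.

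Endothelial cells line all blood and lymphatic vessels. Their growth is driven by vascular endothelial growth factors, which act on the receptors Kdr, Flt1 and Flt4, while angiopoietins acting on Tek, with its partner Tie1, steady or loosen the vessel wall. The identity of the cells depends on transcription factors of the ETS family (Erg, Fli1, Ets1) and on the SoxF group (Sox7, Sox17, Sox18), and the cells are held together by VE-cadherin (Cdh5), PECAM-1 (Pecam1) and claudin 5 (Cldn5). In the early limb bud a plexus of capillaries fills the mesenchyme and is remodelled as the skeleton forms. A bulk sample cannot tell fewer endothelial cells from less RNA of these genes per cell.

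The arrays were comparable in scale, with median intensities from 39.4 to 44.4. Sost fell on 1 of its 2 probe sets (−2.17 ± 0.20 on the log2 scale, SE) and Sostdc1 on 1 of its 2 (−2.35 ± 0.37), and the others were not called. Where these probe sets lie relative to the deletions was not checked, so the uncalled ones test nothing. The groups also differed in measures that do not come from any mouse gene or that follow RNA and labelling quality. The Dap poly-A control stood at 7.09 ± 0.27 (mean log2 intensity ± SD, n = 2) in double mutants and 3.30 ± 0.06 (n = 3) in wild type. For Gapdh the 3' probe set minus the 5' probe set gave 0.21 ± 0.08 and −0.10 ± 0.04 (exact permutation p = 0.1, two-sided, the smallest that 10 splits allow), and for Actb 0.60 ± 0.07 and 0.37 ± 0.27 (exact permutation p = 0.4). Preparation and genotype therefore cannot be told apart in the differences below. The defining endothelial markers were present in wild type, with Pecam1 at 8.32, Cdh5 at 7.38 and Kdr at 8.52, against 5.41 for the median probe set and 3.07 for a control of an absent transcript. Limb mesenchyme markers were present too, with Prrx1 between 12.19 and 12.39 on all 5 arrays.

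Many endothelial transcripts were lower in double mutants, led by Pecam1, Rasip1 and Sox7. Others, Kdr and Cdh5 among them, were not called on the brightest probe set. On the brightest probe set 0 of the 41 genes rose (limma, 0 of the 22 with an unadjusted p under 0.05 was higher). At an adjusted p under 0.05 with limma, 13 genes fell and 28 were not called. Over all genes on the same basis, 8.14% were called lower and 6.56% higher, against 31.7% and 0 for the endothelial genes. The median difference was −0.33 for the 41 genes and −0.02 for all 18193. The arrays of the groups did not overlap in 25 of the 41 genes, 22 of them lower and 3 higher in double mutants, where over all genes 43.2% did not overlap, 23.0% lower and 20.2% higher. A difference of −0.3 or lower was found in 22 of the 41 (53.7%) and in 15.2% of all genes, and a difference of 0.3 or higher in 0 of the 41 and in 12.5% of all genes. Summed over the 41 genes, linear intensity was 9072 and 9293 on the double mutant arrays and between 11576 and 11655 on the wild type arrays, so that the double mutant mean was 79.0% of the wild type mean. The 41 genes share a cell type and are not independent of each other.

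**Figure D1:**
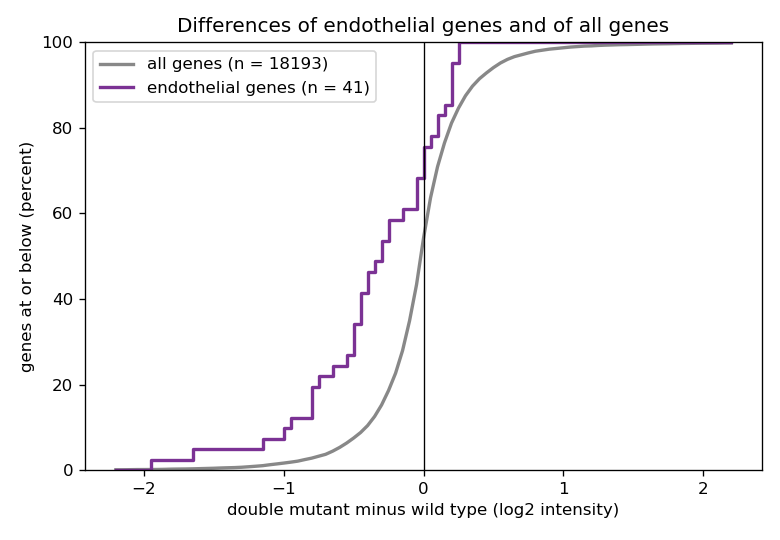
The share of genes (percent, vertical axis) whose log2 difference, double mutant minus wild type, lies at or below the value on the horizontal axis, for 41 endothelial genes and for all 18193 genes by their brightest probe set. The endothelial curve lies to the left of that of all genes, with medians of −0.33 and −0.02.

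The calls rested on few arrays. Without wild type replicate 2 limma called 0 of the 41 genes, with 19 at an unadjusted p under 0.05. It also called 0 of all 45037 probe sets, against 8206 in the main fit. The count was 9 without wild type replicate 1 and 7 without wild type replicate 3, with 2939 and 5108 of all probe sets called. Leaving out a double mutant array left 1 in that group, so only the median difference is given. It was −0.33 without replicate 1 and −0.26 without replicate 2. With the 3' minus 5' difference as a covariate the count of called genes was 0 as well, with 13 at an unadjusted p under 0.05. Of all probe sets 0 were called there too. In that fit the median difference was −0.29, Pecam1 stood at −1.71 ± 0.16 (adjusted p = 0.0632) and Rasip1 at −1.84 ± 0.13 (adjusted p = 0.0593). The median difference stayed between −0.36 and −0.26 when 1 array at a time was left out. With equal array medians 18 endothelial genes were called, all lower. On that scale 72.9% of all called genes were lower, against 55.4% on the deposited scale. Of all 18193 genes 2023 were called lower and 753 higher there, against 1481 and 1194 on the deposited scale. The 13 called genes were lower on every scale tried, while the signs of Robo4, Nos3 and Adgrf5 turned with equal medians and those of Cdh5, Kdr and Tek with quantile normalization.

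**Figure D2:**
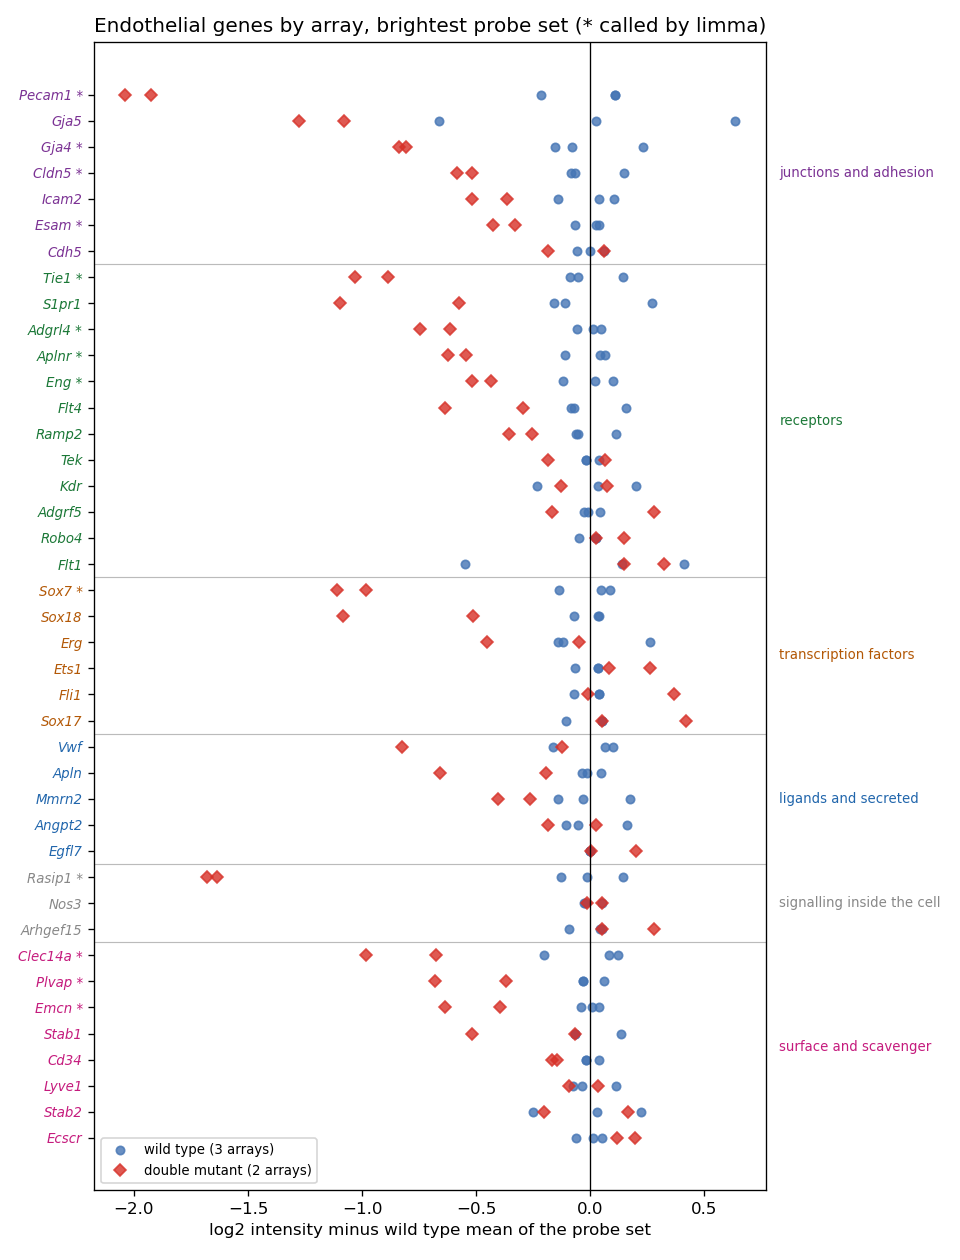
Log2 intensity of each of the 41 endothelial genes on each array, minus the wild type mean of the same probe set (horizontal axis), with genes grouped by role. Circles are the 3 wild type arrays, diamonds the 2 double mutant arrays, and an asterisk marks the 13 genes called by limma, all of which lie to the left of 0.

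Genes of junctions and adhesion were the group with the lowest median difference, −0.55, with 4 of 7 called lower and none higher. Pecam1, which encodes an adhesion molecule of endothelial junctions also found on platelets and leukocytes, had log2 intensities of 6.40 and 6.28 in double mutants and 8.43, 8.43 and 8.11 in wild type. The double mutant arrays lay far below every wild type array. The difference was −1.98 ± 0.13 (SE, adjusted p = 0.0066), or 3.95-fold lower. It was measured on a single probe set. Gja4, which encodes the gap junction protein connexin 37 of arteries, had 6.57 and 6.54 in double mutants and 7.62, 7.30 and 7.23 in wild type, a difference of −0.82 ± 0.13 (adjusted p = 0.0259) with no overlap. Cldn5, the tight junction claudin of endothelium, had 7.72 and 7.78 against 8.45, 8.22 and 8.23, a difference of −0.55 ± 0.09 (adjusted p = 0.0277). Esam, an immunoglobulin family protein of endothelial junctions, had 7.77 and 7.86 against 8.23, 8.22 and 8.13, the smallest of the called differences at −0.38 ± 0.06 (adjusted p = 0.0265). Again the groups did not overlap for either gene.

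Cdh5, the gene of VE-cadherin, did not follow them. Its brightest probe set read 7.44 and 7.19 in double mutants and 7.32, 7.38 and 7.44 in wild type. The groups overlapped, with a difference of −0.06 ± 0.09 (adjusted p = 0.688). A second, dim Cdh5 probe set read 3.95 and 4.03 against 4.85, 5.15 and 4.55, without overlap and just short of a call (−0.86 ± 0.19, adjusted p = 0.0513). By the mean of both probe sets Cdh5 was called lower (−0.46 ± 0.10, limma adjusted p = 0.0326). Icam2, a ligand for leukocyte integrins on resting endothelium, stood at −0.44 ± 0.10 (adjusted p = 0.0542). Gja5, the arterial connexin 40, stood at −1.18 ± 0.41 (adjusted p = 0.137), with wild type arrays spread from 3.75 to 5.04 and double mutant arrays at 3.33 and 3.13, near the 3.10 of the absent control in that group. Neither gene overlapped between the groups.

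Among 12 receptors 4 fell and 8 were not called, with a median difference of −0.39. Tie1, the orphan partner of the angiopoietin receptor Tek, read 6.17 and 6.02 in double mutants and 7.20, 6.97 and 7.001 in wild type. Its groups were separate, with a difference of −0.96 ± 0.10 (SE, adjusted p = 0.0110), or 1.94-fold lower. Tek itself read 7.06 and 6.81 against 6.97, 7.03 and 6.97, overlapping, with a difference of −0.06 ± 0.09 (adjusted p = 0.692). Adgrl4, an adhesion G protein-coupled receptor of angiogenic vessels, read 4.71 and 4.84 against 5.40, 5.46 and 5.50, a separation at a level near the median of all probe sets (−0.68 ± 0.07, adjusted p = 0.0101). Its second probe set differed by −0.07 (adjusted p = 0.460). Aplnr, the apelin receptor that marks veins and sprouting capillaries, read 10.63 and 10.55 against 11.06, 11.22 and 11.24, a difference of −0.58 ± 0.08 (adjusted p = 0.0165). The second Aplnr probe set differed by −0.08 (adjusted p = 0.405). Eng, which encodes endoglin, a co-receptor for BMP9 and TGF-beta, read 7.32 and 7.41 against 7.72, 7.94 and 7.86, a difference of −0.48 ± 0.08 (adjusted p = 0.0305).

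The receptors of vascular endothelial growth factor were not called. Kdr, the main signalling receptor, read 8.59 and 8.39 in double mutants and 8.72, 8.29 and 8.55 in wild type. The double mutant arrays lay inside the wild type range, and the difference was −0.03 ± 0.16 (adjusted p = 0.922). Flt1, which binds the ligand and limits its action, had 4 probe sets with differences from −0.73 to 0.31, and 0 of them was called. Flt4, the receptor of lymphatic and early blood vessels, stood at −0.47 ± 0.14 and −0.72 ± 0.20 on its 2 probe sets (adjusted p = 0.102 and 0.0853), without overlap on either. S1pr1, the receptor for sphingosine 1-phosphate that stabilises vessels, read 5.58 and 6.11 against 6.57, 6.95 and 6.53 (−0.84 ± 0.22, adjusted p = 0.0752). Ramp2, the partner of the adrenomedullin receptor, stood at −0.31 ± 0.08 (adjusted p = 0.0726). Robo4, a guidance receptor that stabilises vessels, and Adgrf5 stood at 0.09 and 0.05 on the brightest probe set, with overlapping groups.

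Among the 6 transcription factors Sox7 alone fell on its brightest probe set. Sox7 read 6.24 and 6.37 in double mutants and 7.40, 7.21 and 7.44 in wild type, a clear separation with a difference of −1.05 ± 0.09 (SE, adjusted p = 0.0089), or 2.07-fold lower. Its second probe set, at 4.04 to 4.17 on all 5 arrays, differed by −0.01. Sox18, the SoxF gene whose loss of function in mouse disturbs vessels and lymphatics, read 8.07 and 8.64 against 9.20, 9.19 and 9.08. All wild type arrays lay above the double mutant arrays, which were wide apart, and the gene was not called (−0.80 ± 0.19, adjusted p = 0.0565). Sox17, the SoxF gene of arteries, overlapped on its brightest probe set at 0.24 ± 0.13 (adjusted p = 0.315).

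The ETS factors Erg, Fli1 and Ets1 gave different readings on different probe sets. Ets1 read 9.97 and 10.15 in double mutants and 9.92, 9.92 and 9.82 in wild type on the brightest (0.17 ± 0.08, adjusted p = 0.228). On a dimmer probe set the gene read 4.9996 and 5.37 against 7.83, 7.78 and 6.65, called lower at −2.24 ± 0.43 (adjusted p = 0.0369), with wild type replicate 3 between the other wild type arrays and the double mutants. Erg read 8.19 and 7.79 against 8.12, 8.10 and 8.50 on the brightest, with overlap (−0.25 ± 0.19, adjusted p = 0.427). Its other probe set read 4.63 and 4.95 against 6.33, 6.13 and 5.98 and was called lower (−1.36 ± 0.15, adjusted p = 0.0124). Fli1 stood at 0.18 ± 0.13 on the brightest and at −1.42 ± 0.36 on the other (adjusted p = 0.408 and 0.0651). In wild type that other Fli1 probe set was the brighter, at 9.26 against 8.65. Ranks were taken over the arrays of both groups, so its low double mutant values placed it second. It had wild type replicate 3 at 8.64, apart from 9.60 and 9.55 in the other wild type arrays. Ets1 and Fli1 are also active outside endothelium, and the place of each probe set along its transcript was not used here. With the 3' minus 5' difference as a covariate the dimmer Ets1 probe set stood at −1.07 ± 0.11 (adjusted p = 0.0704) and that of Erg at −1.03 ± 0.17 (adjusted p = 0.102). That fit called 0 of all 45037 probe sets, so the lack of a call there is not particular to Ets1 and Erg.

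Over the 18 genes with more than 1 probe set, 5 had differences that lay more than 1 log2 unit apart, and the median spread between probe sets of a gene was 0.59. Over all 9010 genes with several probe sets the median was 0.50 and 30.3% were more than 1 unit apart. Counting every probe set, 16 of 68 were called lower, 3 higher and 49 neither, where over all probe sets 9.52% were called lower and 8.70% higher. The 3 higher calls were all of Egfl7. Clec14a was called lower on both of its probe sets, and Erg and Ets1 only on a dimmer one. The groups did not overlap on 41 of the 68, with double mutants below on 35 and above on 6, where over all probe sets 45.2% did not overlap, 23.0% below and 22.1% above. No gene was called in opposite directions on its probe sets, and 25 of the 41 genes were called on none.

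**Figure D3:**
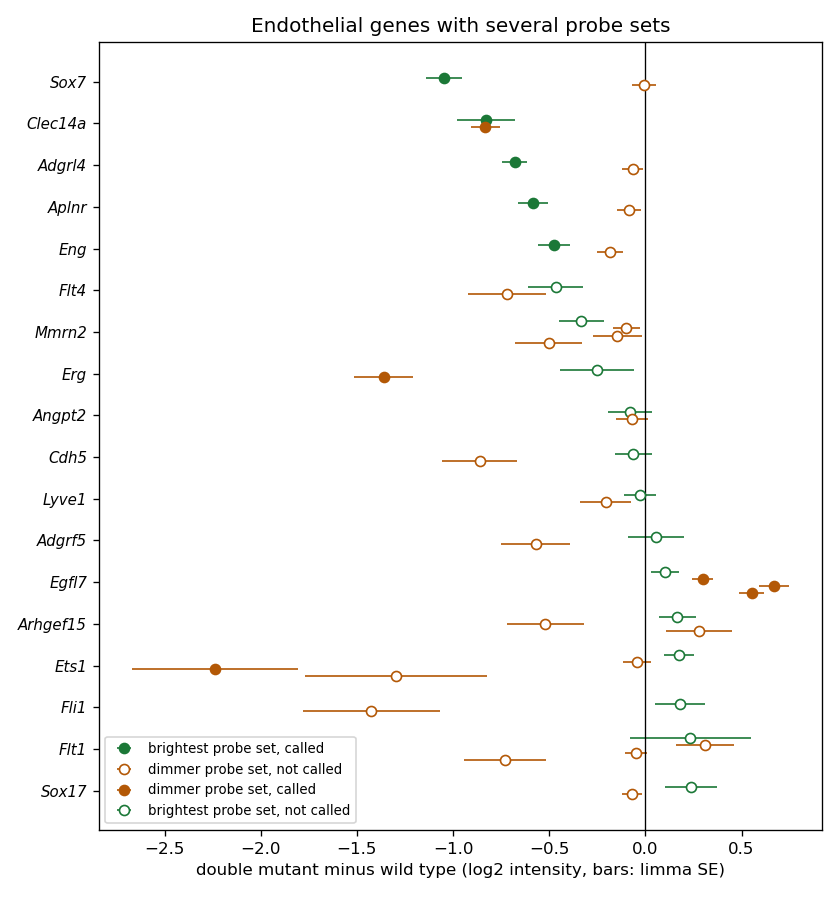
Log2 difference, double mutant minus wild type, for every probe set of the 18 endothelial genes that have several (horizontal axis, bars are limma's SE). Filled points were called. Erg and Ets1 have a dimmer probe set called lower at −1.36 and −2.24 while the brightest lies near 0, and Egfl7 has 3 dimmer probe sets called higher.

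Of the 5 genes of ligands and secreted proteins limma called 0 on the brightest probe set, and 2, Apln and Mmrn2, had an unadjusted p under 0.05, both lower. Mmrn2, a matrix protein of the vessel wall, stood at −0.33 ± 0.12 (adjusted p = 0.139). Egfl7, a secreted protein of endothelial cells that guides vessel tube formation, was the gene with rising probe sets. Its most changed probe set read 7.88 and 7.84 in double mutants and 7.09, 7.19 and 7.30 in wild type, a rise of 0.67 ± 0.08 (SE, adjusted p = 0.0130). Its dimmest and its second brightest rose by 0.55 ± 0.07 and 0.30 ± 0.05. The brightest read 8.55 and 8.36 against 8.35 on each of the 3 wild type arrays and was not called (0.10 ± 0.07, adjusted p = 0.402). In double mutants the second brightest was the brighter of these 2, at 8.50 against 8.46. By the mean of all its probe sets Egfl7 was called higher (0.41 ± 0.05, limma adjusted p = 0.0099). Apln, the ligand of the apelin receptor made by tip cells, read 6.69 and 7.16 against 7.32, 7.34 and 7.40 (−0.43 ± 0.15, adjusted p = 0.145). Angpt2, the angiopoietin that loosens vessels, overlapped on both probe sets at −0.08 and −0.07. Vwf, the clotting factor carrier of mature endothelium, was dim and overlapped (−0.47 ± 0.24).

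Among genes that act inside the cell, Rasip1 fell and Nos3 and Arhgef15 were not called. Rasip1, a Ras-interacting protein needed in mouse for vessels to open a lumen, read 5.14 and 5.19 in double mutants and 6.81, 6.69 and 6.97 in wild type. The double mutant arrays agreed closely and lay well below wild type, with a difference of −1.66 ± 0.10 (SE, adjusted p = 0.0061), or 3.16-fold lower, the smallest p of the 41 genes. Nos3, the endothelial nitric oxide synthase, read 6.38 and 6.32 against 6.31, 6.38 and 6.30, with a difference of 0.02 ± 0.05 (adjusted p = 0.853).

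Of the 8 surface and scavenger genes 3 fell. Clec14a, a C-type lectin of endothelium that binds the Mmrn2 protein, read 6.79 and 6.48 against 7.55, 7.59 and 7.27 on the brightest (−0.83 ± 0.15, adjusted p = 0.0325) and stood at −0.83 ± 0.08 on the other (adjusted p = 0.0093), so that its probe sets gave the same size. Emcn, the sialomucin of veins and capillaries, read 8.32 and 8.56 against 8.91, 8.96 and 8.99 (−0.52 ± 0.09, adjusted p = 0.0290). Plvap, which forms the diaphragms of endothelial fenestrae and caveolae, read 8.62 and 8.94 against 9.27, 9.37 and 9.27 (−0.52 ± 0.11, adjusted p = 0.0449). For these 3 genes every double mutant array lay below every wild type array. Cd34, also found on blood progenitors, stood at −0.16 ± 0.05 (adjusted p = 0.0949), and Ecscr, a regulator of endothelial migration, at 0.16 ± 0.06 (adjusted p = 0.163), each without overlap. Lyve1, the hyaluronan receptor of lymphatic vessels and of some macrophages, and the scavenger receptor Stab2 were dim, at 4.32 and 4.63 in wild type, and overlapped. The related Stab1 stood at −0.29 ± 0.16 (adjusted p = 0.309).

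Because many of these genes are regulated by ETS and SOX factors in endothelium, the 250 bases before the annotated start were read from RefSeq promoters (GRCm38.p6) for the 21 of 41 genes that the table held. The ETS motif forms CAGGAAG and CCGGAAG and the SOX motif form AACAAT were searched on both strands, and the motifs do not overlap in the windows shown. CAGGAAG was in 10 of 26 windows of the endothelial genes (38.5%) and in 10.8% of 32851 windows of all genes. CCGGAAG was in 0 of 26 and in 6.91%, and AACAAT in 3 of 26 and in 9.42%. CAGGAAG was in 2 of 8 windows of genes called lower and in 8 of 18 windows of genes not called. The windows below were chosen because they hold a motif, and are those of Rasip1 and Emcn, which fell, Egfl7, which rose on dimmer probe sets, and Robo4, which was not called, with each motif in capitals. Rasip1 and Emcn are the 2 of the 8 genes called lower whose window holds CAGGAAG, and Egfl7 has 2 further windows, 1 with CAGGAAG and 1 with none of the motifs. Egfl7 and Robo4 were picked after their values were seen. A match is a description of the letters, not a binding site.
Rasip1 promoter, chr7:45627287-45627536, plus strand: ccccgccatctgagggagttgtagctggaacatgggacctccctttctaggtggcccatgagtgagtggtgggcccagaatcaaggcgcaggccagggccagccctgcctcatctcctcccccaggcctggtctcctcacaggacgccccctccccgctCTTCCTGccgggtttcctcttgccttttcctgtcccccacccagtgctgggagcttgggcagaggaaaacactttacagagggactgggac
Emcn promoter, chr3:137340828-137341077, plus strand: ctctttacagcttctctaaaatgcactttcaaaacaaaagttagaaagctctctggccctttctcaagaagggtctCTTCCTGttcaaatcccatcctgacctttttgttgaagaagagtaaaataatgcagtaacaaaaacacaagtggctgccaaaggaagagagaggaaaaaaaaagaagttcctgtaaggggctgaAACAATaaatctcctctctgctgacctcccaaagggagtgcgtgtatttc
Egfl7 promoter, chr2:26580833-26581082, plus strand: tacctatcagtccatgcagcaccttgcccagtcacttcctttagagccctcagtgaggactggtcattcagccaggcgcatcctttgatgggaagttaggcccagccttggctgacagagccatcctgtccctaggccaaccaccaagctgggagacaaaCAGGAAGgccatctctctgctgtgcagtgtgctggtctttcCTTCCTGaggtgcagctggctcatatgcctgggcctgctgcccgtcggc
Robo4 promoter, chr9:37401722-37401971, plus strand: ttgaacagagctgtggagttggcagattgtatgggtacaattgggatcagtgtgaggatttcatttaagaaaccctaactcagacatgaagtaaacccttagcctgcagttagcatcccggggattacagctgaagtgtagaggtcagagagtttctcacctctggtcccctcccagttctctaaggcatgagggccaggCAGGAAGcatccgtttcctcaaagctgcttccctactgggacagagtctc
The capitals at position −91 of Rasip1 and −174 of Emcn, counted back from the start, are CAGGAAG on the opposite strand, and those at −50 of Emcn are AACAAT. In Egfl7 they are CAGGAAG at −90 and its opposite strand form at −49, and in Robo4 CAGGAAG at −50.

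Other genes of vascular signalling, listed here apart from the 41, were called in both directions. Of 59 measured, 3 rose (5.08%, against 6.56% of all genes), 8 fell (13.6%, against 8.14% of all genes) and 48 were not called, with a median difference of −0.08. Ephb4, the ephrin receptor of veins, read 8.64 and 8.80 in double mutants and 9.50, 9.62 and 9.75 in wild type. It fell by 0.90 ± 0.10 (SE, adjusted p = 0.0129). Dll4, the Notch ligand of arteries and tip cells, read 5.17 and 5.46 against 6.36, 6.09 and 6.08 (−0.86 ± 0.14, adjusted p = 0.0251). Cav1, the coat protein of caveolae, fell by 0.46 and Tfpi, an inhibitor of clotting, by 0.35. Foxc1, a forkhead factor of vessels and mesenchyme, fell by 0.57. Nr2f2, a factor of venous identity that limb mesenchyme also makes, rose by 1.26 ± 0.19 (adjusted p = 0.0217) on the brightest of its 6 probe sets. Of its other probe sets 1 was called lower at −0.64 and 1 higher at 1.41, and 3 were not called. Id1, a BMP target, rose by 0.42.

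Vegfa, the main ligand of Kdr and Flt1, read 7.03 and 7.72 in double mutants and 6.49, 6.69 and 6.90 in wild type on its brightest probe set, higher without overlap but not called (0.68 ± 0.25, adjusted p = 0.157). Its other probe set was called lower at −1.34 ± 0.08 (adjusted p = 0.0063), so the array gave no single direction for Vegfa. In wild type that other probe set was the brighter, at 7.33 against 6.69, and it ranked second only over the arrays of both groups. Prox1, the master factor of lymphatic fate, was dim at 3.58 and 4.08 (−0.50 ± 0.13, adjusted p = 0.0674). The 59 genes had 71 further probe sets, of which 4 rose and 18 fell, with a median difference of −0.26. Over all probe sets 9.52% were called lower and 8.70% higher. The share called among dimmer probe sets alone was not counted. Among the dimmer probe sets of all genes 57.2% of the differences were negative, with a median of −0.04.

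Markers of other cells in the bud were read beside the endothelial genes, and their counts stand against 8.14% of all genes called lower and 6.56% called higher. Of 10 measured erythroid genes 4 fell and 0 rose. Alas2, the first enzyme of heme synthesis in red cells, fell by 1.89. Epb42 and Slc4a1, of the red cell membrane, and Hba-x, an embryonic globin, fell too, at −1.84, −1.04 and −0.45. The globin genes Hbb-y and Hbb-bh1 stood at −0.01 and −0.02. The summed erythroid level was 44949 and 50305 in double mutants and from 51459 to 55143 in wild type. This linear sum rests mostly on Hbb-y, Hba-x and Hbb-bh1, at 14.37, 14.08 and 13.69 in wild type. Slc4a1, the next brightest, was at 9.92. Of 15 macrophage and leukocyte genes C1qc fell (6.67%, below the share of all genes) and 0 rose. Double mutants lay below wild type without overlap in 8 of the 15 and above in 0, against 23.0% and 20.2% of all genes. Csf1r, C1qa, C1qb and Spi1 were among these 8, lower at an unadjusted p under 0.05 in limma but not called. The summed level was 1507 and 1246 against 1649 to 1857, with the double mutant mean at 78.0% of the wild type mean. Of 10 mural cell genes, those of the cells that wrap vessels, Anpep fell and 0 rose. Rgs5 and Notch3 stood higher without overlap, at 1.19 ± 0.39 and 0.50 ± 0.12, with unadjusted p = 0.035 and 0.0113 in limma and adjusted p = 0.121 and 0.0569. Kcnj8 stood lower without overlap, at −0.42 ± 0.13 (limma unadjusted p = 0.0311, adjusted p = 0.111). Differences were negative for 6 of the mural genes and positive for 4, with a median of −0.29. The mural sums overlapped at 5239 and 3778 against 4490 to 5273. Of 5 megakaryocyte and platelet genes Pf4 rose by 0.69. The other 4 lay between −0.15 and 0.12 and were not called. The sums, which include Pf4, were 1118 and 1014 against 733 to 803. Of 10 ectoderm genes Epcam, Esrp1, Trp63 and Cdh1 rose, by 0.76, 0.89, 0.52 and 1.05, and 0 fell. Differences were positive for 8 of the 10 and negative for 2. Krt5 stood lower without overlap (−0.38 ± 0.14, limma adjusted p = 0.157), and Cldn6 lower with overlap (−0.28 ± 0.16). Of 11 dimmer ectoderm probe sets 1 was called higher and 1 lower. The ectoderm sums were 5975 and 5903 against 4123 to 4577. Of 6 mesenchyme genes limma called 0, with Twist1 at an unadjusted p under 0.05 (−0.26 ± 0.08). The leukocyte genes Itgam and Cd33 and the erythroid Hba-a1 were near the absent control, at 3.46, 3.48 and 3.54 in wild type. The part of these shifts in the endothelial differences was not tested.

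**Figure D4:**
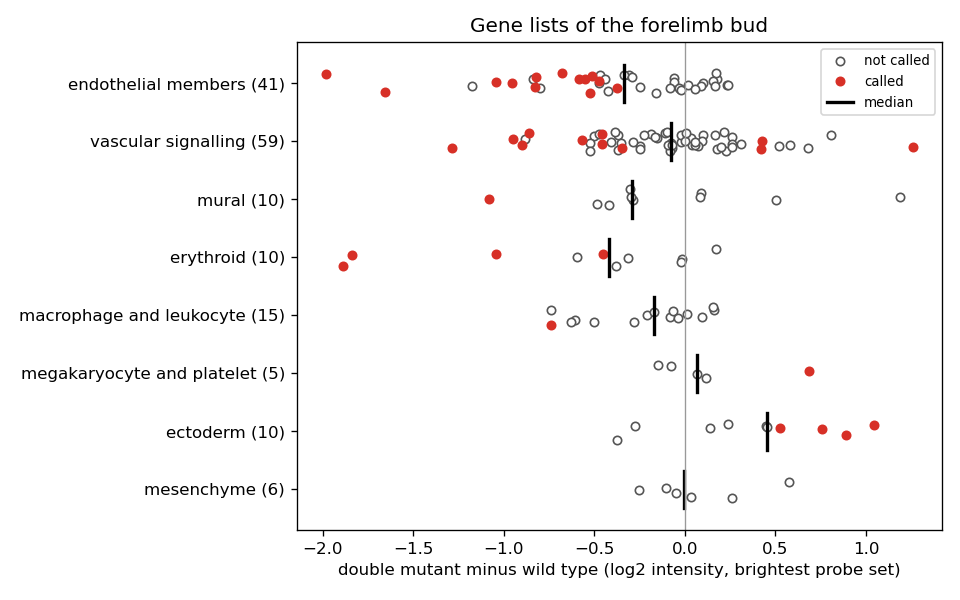
Log2 difference, double mutant minus wild type, of each gene on its brightest probe set (horizontal axis) for the endothelial genes and 7 other lists, with the number of genes measured in brackets. Filled points were called and bars mark medians, which are −0.33 for the endothelial genes, −0.42 for erythroid, 0.45 for ectoderm and −0.01 for mesenchyme genes.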

How the data were processed

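The deposited values were linear intensities, 1 per probe set and array. RMA and limma are named in the submitters' processing notes, with no version or order, and how it was run is not stated there. The deposited intensities were used on their own scale after taking log2. The array has 45101 probe sets. Without its 64 controls 45037 were tested, and none was dropped for a low level. The platform annotation gave 34945 of them 1 gene symbol, 932 several and 9160 none, and 2 probe sets that name Ramp2 with another gene were not used. The test was limma (version 3.58.1, R 4.3.3) with 1 mean per genotype and no covariate, 3 residual degrees of freedom, two-sided p-values and Benjamini-Hochberg adjustment over all probe sets. A call is an adjusted p under 0.05. Differences are double mutant minus wild type in log2 intensity with limma's SE. Levels are means ± SD of 2 and 3 arrays, whose small number limits precision. The fit was tested on simulated data.

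The 41 genes, the other lists and the tests were chosen with earlier results of these data known, so no test of a list as a whole is given. Genes given by array are Pecam1, Cdh5, Kdr and the 12 called genes with the smallest p. Others given so, among them Plvap and genes whose probe sets differ or that miss the threshold, were chosen after their values were seen. From each other list up to 6 called genes are named, plus Vegfa, Prox1, Nr2f2 and Dll4. An exactly equal value in at least 2 arrays occurred in 22 of the 68 probe sets, among them those of Pecam1 and Plvap, which narrows their spread. Alternatives were a replicate block, 2 other scalings, an offset, a filter on level, an intensity trend, 2 covariates, other rules for the probe set and leaving out each array. The covariate for Y-linked genes, in which 1 wild type array was low, was chosen after seeing the data.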

Additional observations from a re-analysis of the deposited data

How the results depend on the processing

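All 13 endothelial genes called lower kept a negative difference under each of 3 other scalings (equal array medians, quantile normalization and an offset of 16 before log2), and all 13 stayed called with equal medians, an intensity trend, the offset and the mean of all probe sets per gene. Quantile normalization kept 10 of them and a filter on level 12. By the mean of all probe sets 19 genes were called, of which 1, Egfl7, was higher. The share of all genes called by that rule was not counted. The count of called endothelial genes was 3 with a replicate block, 0 with the 3' minus 5' covariate (limma, 13 at an unadjusted p under 0.05) and 3 on the second brightest probe set of the 18 genes that have one. Leaving out 1 array gave 0 to 9. The median difference, −0.33, was −0.42 with equal medians, −0.25 with quantile normalization, −0.29 with the 3' minus 5' covariate and −0.14 on the second brightest probe set, and −0.36 to −0.26 with 1 array left out. Over all probe sets 8206 were called, with 2351 under the replicate block, 4290 with the Y-linked covariate, 0 with the 3' minus 5' covariate (9633 at an unadjusted p under 0.05) and 0 to 5108 with 1 array left out. The 11 vascular signalling calls became 0 under the replicate block (16 at an unadjusted p under 0.05), 0 with the 3' minus 5' covariate (14), 5 with the Y-linked covariate, 21 by the mean of all probe sets and 0 to 5 with 1 array left out. The cause of these changes was not tested. Where 1 double mutant array was left out, the other was assumed to vary like the wild type arrays.

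The replicate numbers are shared by the groups, but same-numbered arrays deviated together at a correlation of only 0.09 and 0.12 over 2 pairs, and nothing in the labels pairs them. Of the differences that were not called, that of Cdh5 turned to 0.0212 with quantile normalization and ran from −0.185 to 0.0615 with 1 array left out. By the mean of all its probe sets, however, Cdh5 was called lower, at −0.46 ± 0.10 (limma adjusted p = 0.0326). The difference of Kdr turned to 0.0527 with the Y-linked covariate and 0.0384 with quantile normalization. It ran from −0.146 to 0.0735 with 1 array left out.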

Other observations

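Arterial and venous markers were called in both directions on the brightest probe set. The counts stand against 8.14% of all genes called lower and 6.56% called higher. Of 6 arterial genes Gja4 and Dll4 fell, Hey1, a Notch target that is also made outside vessels, rose by 0.43 ± 0.09 (SE, limma adjusted p = 0.0461), and Gja5, Sox17 and Efnb2 were not called on the brightest probe set. Of 4 venous genes Ephb4, Aplnr and Emcn fell. Nr2f2, which limb mesenchyme also makes, rose on its brightest probe set. Of its dimmer probe sets 1 was called lower at −0.64 and 1 higher at 1.41, so the array gave no single direction for Nr2f2. Of 4 lymphatic genes (Flt4, Lyve1, Pdpn and Prox1) limma called 0 on the brightest probe set, with Flt4 and Prox1 at an unadjusted p under 0.05, and Prox1 was called lower on a dimmer probe set at −0.42 ± 0.06 (adjusted p = 0.0167). Efnb2, the arterial ephrin that binds Ephb4, was called lower on 2 of its dimmer probe sets, at −0.58 and −3.43.

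The angiopoietin gene Angpt1, made by cells around vessels, had a dimmer probe set called lower at −1.98 ± 0.19, and S1pr3, a sphingosine 1-phosphate receptor, had 2, at −1.50 and −4.82. Their brightest probe sets were not called, at −0.23 ± 0.26 for Angpt1 (adjusted p = 0.597) and −0.37 ± 0.13 for S1pr3 (adjusted p = 0.148). Dimmer probe sets of the semaphorin and growth factor co-receptors Nrp1 and Nrp2 were called the other way, at 2.65 ± 0.33 and 2.44 ± 0.19. The brightest of Nrp1 and Nrp2 were not called, at −0.08 and 0.001. Hif1a and Ctnnb1 of the same list also had dimmer probe sets called lower, at −4.50 and −2.40, with the brightest uncalled at 0.10 and 0.18. Over all 9010 genes with several probe sets 30.3% had differences more than 1 log2 unit apart, so such splits are not particular to vascular genes. These readings were noticed after the values were seen.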
